A study of Mus musculus with 12 samples.

Results

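The enzymes of glycolysis from aldolase to enolase were described at the level of their mRNA in rods and in whole retina of mice with and without *Pkm2* in rods. Members were all rows of the deposited table whose gene symbol was *Aldoa*, *Aldoc*, *Tpi1*, *Gapdh*, *Gapdhs*, *Pgk1*, *Pgam1*, *Eno1*, *Eno2* or *Bpgm*. These 10 symbols occupied 11 of the 56748 rows, because *Aldoa* has 2 entries with different Ensembl identifiers, ENSMUSG00000030695 and ENSMUSG00000114515, and these were kept apart. The other entries are *Aldoc* (ENSMUSG00000017390), *Tpi1* (ENSMUSG00000023456), *Gapdh* (ENSMUSG00000057666), *Gapdhs* (ENSMUSG00000061099), *Pgk1* (ENSMUSG00000062070), *Pgam1* (ENSMUSG00000011752), *Eno1* (ENSMUSG00000063524), *Eno2* (ENSMUSG00000004267) and *Bpgm* (ENSMUSG00000038871). All 11 passed the filter on low values in every comparison.

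All mice carried the RiboTag allele, in which Cre adds an HA tag to ribosomes, and i75-Rod-Cre, a rhodopsin promoter that drives Cre in rods. Littermate controls carried 1 floxed *Pkm2* allele (RiboTag, Pkm2fl/+ and i75-Rod-Cre, labelled Pkm2_Rodhet), so they are not wild-type in rods, and knockout mice carried both alleles floxed (RiboTag, Pkm2fl/fl and i75-Rod-Cre, labelled Pkm2_Rodko). The series description gives an age of 2 weeks and the methods of the study 2 months. PolyA RNA bound to HA-tagged ribosomes after Rod-TRAP (translating ribosome affinity purification, called rods here) and RNA of the total lysate (called retina here) were sequenced, with 3 libraries in each of the 4 groups and 13458890 to 22790072 recovered reads per library. Because rods were profiled by ribosome-bound RNA and retina by total RNA, cell type and ribosome binding cannot be told apart in any comparison of the fractions. In bulk samples, fewer cells of a type and less RNA per cell cannot be told apart either.

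Aldolase splits fructose 1,6-bisphosphate into a pair of triose phosphates, which triose phosphate isomerase (*Tpi1*) interconverts. Glyceraldehyde-3-phosphate dehydrogenase, phosphoglycerate kinase, phosphoglycerate mutase and enolase then carry the triose phosphate to phosphoenolpyruvate, the substrate of pyruvate kinase. Photoreceptors are known for a high rate of aerobic glycolysis, and several of these steps exist as isozymes with their own genes. *Aldoa* is the widely expressed aldolase and *Aldoc* the brain form, *Eno1* is the general and *Eno2* the neuronal enolase, and *Gapdhs* is a form known from sperm. *Bpgm* makes 2,3-bisphosphoglycerate and is known from red blood cells.

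Isozymes of 1 step differ at many bases, whereas several members have copies elsewhere in the genome that differ at few. A stretch of the coding sequence is shown for each case, because it sets which rows of a gene table can be read as a single gene. The sequences are from GENCODE vM21 transcripts (built on GRCm38), they run from the first base of the start codon, and capitals mark bases that differ from the first sequence of the set. Coding bases 301 to 400 of *Aldoa* (chromosome 7) and the aligned stretch of *Aldoc* (chromosome 11) differed at 25 of 100 bases.
Aldoa: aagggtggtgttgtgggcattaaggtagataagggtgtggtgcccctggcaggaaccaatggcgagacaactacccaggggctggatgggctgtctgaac
Aldoc: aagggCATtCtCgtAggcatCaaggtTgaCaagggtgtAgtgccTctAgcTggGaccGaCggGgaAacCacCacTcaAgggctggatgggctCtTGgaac
Coding bases 676 to 775 of *Eno1* (chromosome 4) are set against Gm4735, a copy on another chromosome, and against *Eno2* (chromosome 6). The copy differed at 1 base and *Eno2* at 26.
Eno1: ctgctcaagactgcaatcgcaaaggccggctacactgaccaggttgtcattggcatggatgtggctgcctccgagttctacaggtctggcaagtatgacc
Gm4735: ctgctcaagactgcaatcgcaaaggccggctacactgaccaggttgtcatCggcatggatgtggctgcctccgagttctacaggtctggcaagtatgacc
Eno2: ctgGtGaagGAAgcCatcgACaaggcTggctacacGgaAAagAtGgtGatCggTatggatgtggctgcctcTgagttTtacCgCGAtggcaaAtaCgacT
Coding bases 335 to 434 of *Gapdh* (chromosome 6) are set against a pair of its copies, Gm5559, which differed at 1 base, and Gm12671, which differed at none.
Gapdh: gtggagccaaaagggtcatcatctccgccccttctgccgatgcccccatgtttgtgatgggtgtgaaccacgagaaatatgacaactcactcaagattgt
Gm5559: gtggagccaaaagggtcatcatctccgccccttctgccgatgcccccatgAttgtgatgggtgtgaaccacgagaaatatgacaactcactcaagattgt
Gm12671: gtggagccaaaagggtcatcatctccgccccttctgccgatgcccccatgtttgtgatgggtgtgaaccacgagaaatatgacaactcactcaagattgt
Over all aligned coding bases, identity was 75.9% between *Aldoa* and *Aldoc*, 75.1% between *Eno1* and *Eno2*, 72.0% between *Gapdh* and *Gapdhs*, and 60.7% between *Pgam1* and *Bpgm*. The longest run shared by isozymes of the same step was 26 bases, between *Aldoa* and *Aldoc*. The 1002 coding bases of *Gapdh* were 100% identical in Gm12671, Gm7336 and Gm10359.

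Rows of near-identical copies held many reads beside the rows of *Gapdh* and *Eno1*. *Gapdh* had 157 copies that matched its mRNA at 90% identity or more, of which 118 had a read and 49 had more than 1% of the reads of the *Gapdh* row. Among them is *Peli2*, a named protein-coding gene that met the rule with 1075 aligned bases at 90.8% identity. Its reads are in the sums of copies, and whether they are of *Peli2* itself was not tested. Its row had 9.31% of the reads of the *Gapdh* row in control rods and 14.5% in control retina. In control rods the summed reads of these copies were 1349% ± 4.52 (SD, n = 3) of the reads of the *Gapdh* row. The row held 6.90% ± 0.0215 of the summed counts of itself and its copies. The share was 7.09% ± 0.0587 in Pkm2_Rodko rods, 7.78% ± 0.612 in control retina and 6.99% ± 0.113 in Pkm2_Rodko retina. Copies of *Eno1* held 78.5% ± 1.31 of the reads of its row in control rods, most of them on *Eno1b* at 47.8% and Gm4735 at 28.3%. The same share was 18.8% ± 0.794 for *Pgam1*, 11.1% ± 0.210 for *Pgk1*, 2.31% ± 0.252 for *Tpi1* and 0.0218% ± 0.00353 for *Aldoa*. No copy was found for *Aldoc*, *Gapdhs*, *Eno2* and *Bpgm*. How reads with several matches were counted is not given in the sources used here, so a read could stand in more than 1 row. Neither the *Gapdh* row nor its sum with the copies can be taken as the level of the gene. The log2 fold changes of *Gapdh* and *Eno1* and the *Eno2* share are therefore also given with the copies added.

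**Figure D1:**
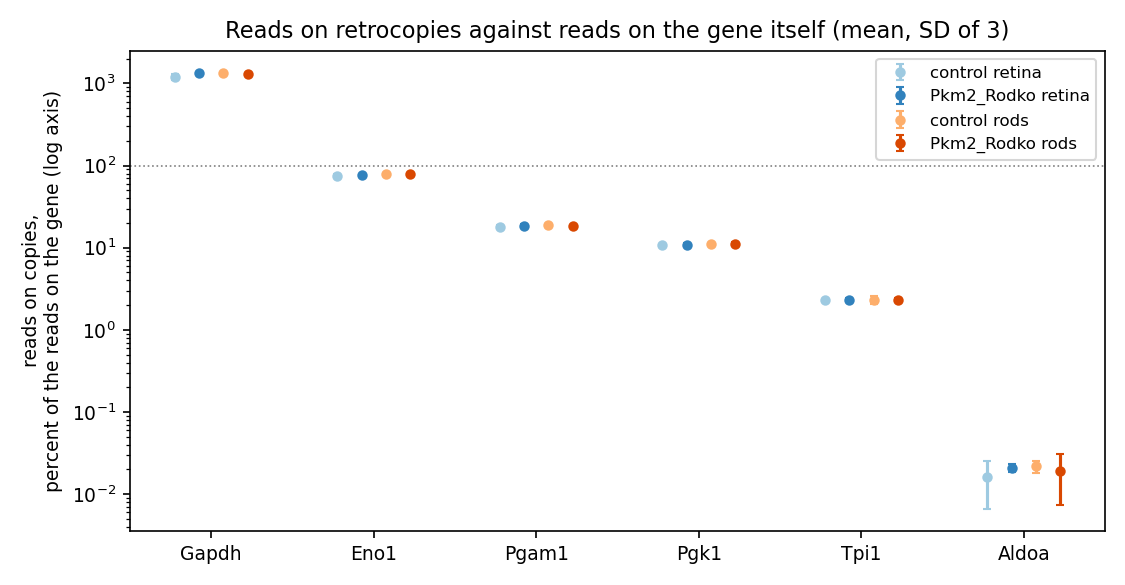
Reads on copies as a percent of the reads on the gene itself (log axis), for the 6 members with copies, in the 4 groups; points are means and bars SDs of 3 libraries, and the dotted line marks 100%. *Gapdh* lies above the line in every group, *Eno1* just below it, and the 4 groups of each gene lie close together.

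Levels were put on 1 scale by dividing the recovered reads by library sizes corrected with TMM over all 12 libraries (CPM). Between genes they were compared only per kilobase of mRNA. The order given is that of single rows, without copies. In control rods *Aldoa* had the highest level, at 3486 CPM per kb, followed by *Eno1* at 1243, *Pgk1* at 620, *Pgam1* at 567, *Tpi1* at 552 and the *Gapdh* row at 456. The isozymes *Aldoc* at 165 and *Eno2* at 132 CPM per kb came next, then *Bpgm* at 44.5, the second *Aldoa* entry at 3.35 and *Gapdhs* at 0.199. Neighbours in this order were separated in all libraries except *Pgk1* and *Pgam1*, and *Pgam1* and *Tpi1*, whose libraries overlapped. In Pkm2_Rodko rods the order and the overlapping neighbours were as in control rods. In retina of both genotypes *Tpi1* came next after *Aldoa* and *Eno1*, ahead of *Pgk1* and *Pgam1*, and *Eno2* (155 CPM per kb in control retina) stood above *Aldoc* (142), the reverse of rods. The overlapping neighbours in retina were *Pgk1* and *Pgam1* in both genotypes. All 11 entries kept their rank in every group with RLE size factors or total reads. Such scaling multiplies all genes of a library alike and could hardly change the order, so this is no check of it. The 11 entries together took 1.03% ± 0.0346 (SD, n = 3) of all reads in control rods, 1.11% ± 0.0908 in Pkm2_Rodko rods, 0.775% ± 0.00536 in control retina and 0.792% ± 0.0168 in Pkm2_Rodko retina. With copies added the shares were 1.94%, 2.07%, 1.34% and 1.37% in the same order. *Gapdh* with its copies had 9378 CPM in control rods and 3896 CPM in control retina. *Aldoa*, whose mRNA has 1511 bases against 1420, had 5267 and 2260 CPM. *Gapdh* would thus rank first with copies, though a read could be counted repeatedly in such sums.

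**Figure D2:**
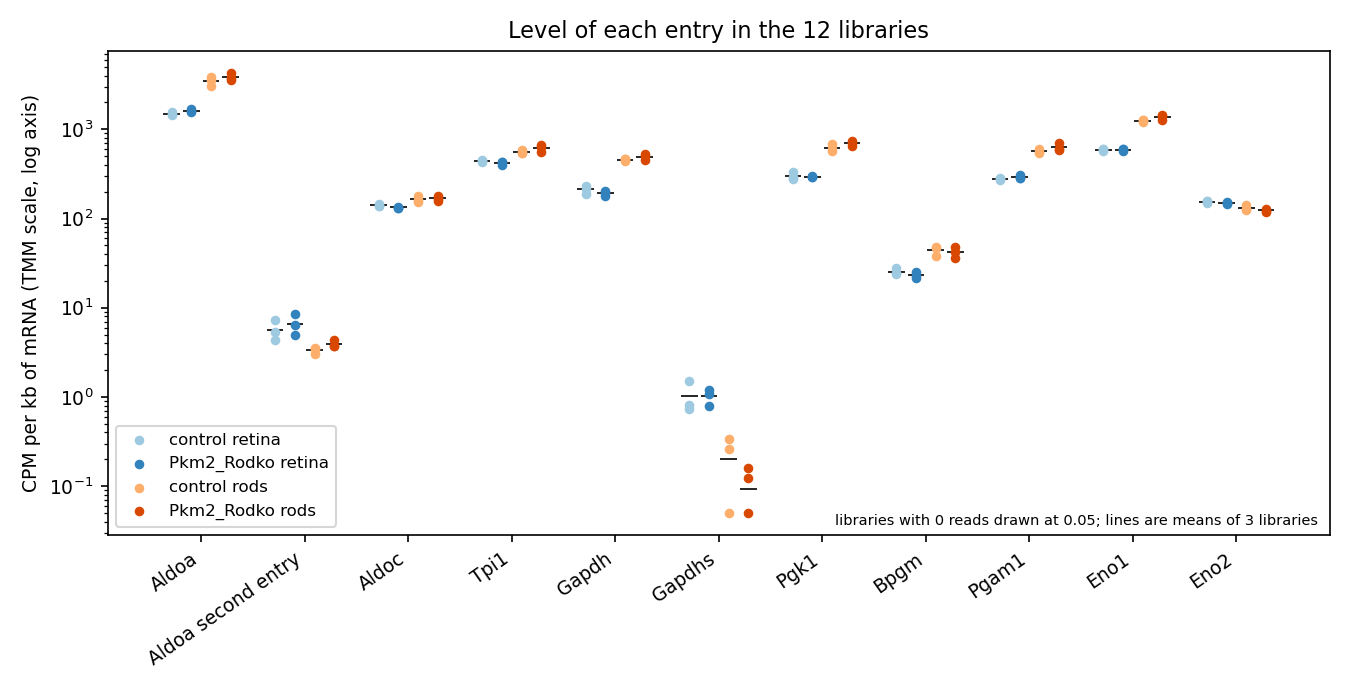
Level of each of the 11 entries in CPM per kb of mRNA (log axis); each point is 1 library, 3 per group, and lines are group means. Copies are not added. Of these single rows *Aldoa* and *Eno1* are the highest in all groups, and *Gapdhs* and the second *Aldoa* entry lie lowest.

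The targeted gene was checked first. *Pkm* covers both splice forms in 1 row, and the floxed exon is only in *Pkm2*. Its level was 3690, 3606 and 3895 CPM in control rods and 1689, 1583 and 1565 CPM in Pkm2_Rodko rods, with no overlap. In retina it was 1474, 1601 and 1477 CPM in controls and 940, 947 and 971 CPM in Pkm2_Rodko mice. The log2 fold change was -1.20 in rods (adjusted p = 5.36e-05, limma on log2(value + 1) with Benjamini-Hochberg adjustment over all genes tested) and -0.65 in retina (adjusted p = 0.0219), where leaving out any library but control retina replicate 2 ended the call (adjusted p = 0.0627 to 0.949 in these 5 fits). The fraction was checked against marker lists. The summed level of 10 rod markers was 205148 to 224657 CPM in the 6 rod libraries and 46837 to 56750 CPM in the 6 retina libraries. The summed level of 7 Müller glia markers was 355 to 536 CPM in rods and 2752 to 3438 CPM in retina, and that of 7 bipolar cell markers 290 to 400 and 808 to 1090 CPM. Cone markers, 7 in number, differed less, with 502 to 617 CPM in rods and 797 to 908 CPM in retina.

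The comparison of rods with retina asks which of these enzymes are more or less abundant in the ribosome-bound mRNA of rods than in the total mRNA of the retina. In controls, 8 of the 11 entries were higher in rods and 3 lower at an adjusted p under 0.05, against a background of 23.5% of 25584 genes higher and 35.5% lower. In Pkm2_Rodko mice the counts were again 8 and 3, with a background of 23.9% and 35.1%. In both genotypes the libraries of all 11 entries separated the fractions without overlap, where the background is 25.2% higher and 36.6% lower in controls and 26.3% and 36.7% in Pkm2_Rodko mice. The median log2 fold change of the entries was 0.80 in controls, and that of all genes was -0.37. Among the 12918 genes with at least 10 reads in every library, 45.8% were higher and 28% lower in controls. In Pkm2_Rodko mice 46.9% and 27.8% of these genes were. Of the 10 entries that passed this filter, 8 were higher and 2 lower in each genotype. The median of these genes was 0.24 in controls and 0.26 in Pkm2_Rodko mice, and that of the entries 0.92 and 0.96. The scale between the fractions matters here. On total reads the median of all genes was -0.77 in controls and -0.74 in Pkm2_Rodko mice, and on the authors' values, which were scaled within each fraction, it was -0.80 in controls.

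*Aldoa* had 5346, 4626 and 5829 CPM in control rods against 2220, 2190 and 2369 CPM in control retina. In Pkm2_Rodko mice it had 6508, 5675 and 5345 CPM in rods and 2527, 2385 and 2396 CPM in retina. The fractions did not overlap in either genotype, with a log2 fold change of 1.22 (SE 0.10, adjusted p = 4.63e-08) in controls and 1.26 (SE 0.10, adjusted p = 2.70e-08) in Pkm2_Rodko mice. The second *Aldoa* entry, which is annotated as a separate protein-coding gene next to the first, went the other way. It had 2.27, 2.63 and 2.55 CPM in control rods and 3.22, 3.94 and 5.34 CPM in control retina. Its log2 fold change was -0.71 (SE 0.24, adjusted p = 0.0207) in controls and -0.72 in Pkm2_Rodko mice, on 25 to 150 reads per library, and leaving out control rods replicate 1 or control retina replicate 3 ended the call in controls (adjusted p = 0.0664 and 0.110). In Pkm2_Rodko mice leaving out rods replicate 3 or retina replicate 2 ended it (adjusted p = 0.0551 and 0.109).

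*Aldoc*, the brain aldolase, had 426, 503 and 446 CPM in control rods and 389, 409 and 387 CPM in control retina. The rod libraries were only slightly above those of retina, with a log2 fold change of 0.21 (SE 0.075, adjusted p = 0.0230). In Pkm2_Rodko mice it was 464, 501 and 441 CPM in rods and 368, 370 and 374 CPM in retina, with a log2 fold change of 0.34 (SE 0.075, adjusted p = 0.00110). This direction rested on the scale. On total reads the log2 fold change was -0.34 in controls (adjusted p = 0.00166) and -0.25 in Pkm2_Rodko mice (adjusted p = 0.0132), that is lower in rods. Relative to the median of all genes it was 0.58 on the TMM scale and 0.43 on total reads in controls. Among genes with at least 10 reads in every library the median was 0.24 on the TMM scale, near the 0.21 of *Aldoc*. In controls the call was lost when control rods replicate 2 (adjusted p = 0.170), control retina replicate 1 (0.0642) or control retina replicate 3 (0.0625) was left out, and under RLE scaling (0.104) and DESeq2 (0.0794).

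*Tpi1*, the isomerase, had 861, 864 and 938 CPM in control rods and 722, 686 and 701 CPM in control retina. With both alleles floxed it had 1015, 1078 and 885 CPM in rods and 686, 690 and 647 CPM in retina. The log2 fold change was 0.34 (SE 0.079, adjusted p = 0.00171) in controls and 0.55 (SE 0.079, adjusted p = 1.68e-05) in Pkm2_Rodko mice. As for *Aldoc*, the sign turned on total reads, to -0.21 in controls (adjusted p = 0.0258) and -0.03 in Pkm2_Rodko mice (adjusted p = 0.757). *Tpi1* and *Aldoc* were the only members whose direction turned with the scale.

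The *Gapdh* row had 664, 623 and 654 CPM in control rods and 308, 332 and 270 CPM in control retina. Knockout libraries had 747, 711 and 650 CPM in rods and 287, 275 and 254 CPM in retina. The log2 fold change was 1.10 (SE 0.085, adjusted p = 2.05e-08) in controls and 1.37 (SE 0.085, adjusted p = 1.44e-09) in Pkm2_Rodko mice. With the reads of all copies added, the level was 9378 ± 338 CPM (SD, n = 3) in control rods and 3896 ± 145 CPM in control retina, and the log2 fold change was 1.27 in controls and 1.35 in Pkm2_Rodko mice. *Gapdhs* was near the limit of detection in rods. It had 0, 9 and 4 reads in control rods and 3, 0 and 3 reads in Pkm2_Rodko rods, against 22, 41 and 28 reads in control retina and 22, 39 and 28 reads in Pkm2_Rodko retina. On summed reads, corrected for library size, rods had 0.228 times the level of retina in controls (95% exact interval 0.117 to 0.410) and 0.0942 times in Pkm2_Rodko mice (0.0337 to 0.213), and these intervals cover counting error only. The fitted log2 fold change was -2.61 in controls and -3.26 in Pkm2_Rodko mice, and in controls a pseudocount of 0.1 ended the call (adjusted p = 0.0553).

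*Pgk1*, the first ATP-forming kinase of the pathway, had 1039, 1264 and 1090 CPM in control rods and 538, 612 and 504 CPM in control retina. Its level in Pkm2_Rodko mice was 1278, 1364 and 1174 CPM in rods and 534, 551 and 527 CPM in retina. Its log2 fold change was 1.04 (SE 0.092, adjusted p = 9.62e-08) in controls and 1.24 (SE 0.092, adjusted p = 1.09e-08) in Pkm2_Rodko mice. *Pgam1*, the mutase, had 958, 984 and 1077 CPM in control rods and 474, 492 and 501 CPM in control retina. Knockout values were 1235, 1071 and 1037 CPM in rods and 552, 511 and 503 CPM in retina. Its log2 fold change was 1.04 (SE 0.080, adjusted p = 1.98e-08) in controls and 1.09 (SE 0.080, adjusted p = 9.76e-09) in Pkm2_Rodko mice. *Pgk1* and *Pgam1* thus stood at about the same distance between the fractions as *Aldoa*, and kept their direction and call on total reads, at 0.49 for each in controls.

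*Bpgm* had 104, 84.9 and 107 CPM in control rods and 62.2, 53.0 and 54.1 CPM in control retina. The Pkm2_Rodko libraries held 107, 92.6 and 79.2 CPM in rods and 55.7, 50.9 and 48.4 CPM in retina. The log2 fold change was 0.80 (SE 0.12, adjusted p = 2.05e-05) in controls and 0.84 (SE 0.12, adjusted p = 1.24e-05) in Pkm2_Rodko mice, and it missed the threshold on total reads (0.25, adjusted p = 0.0630 in controls and 0.0641 in Pkm2_Rodko mice). *Bpgm* was higher in rods, while the summed level of 6 red blood cell markers was lower there, at 4.36 to 20.6 CPM in rods and 36.4 to 131 CPM in retina.

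*Eno1*, the general enolase, had 2548, 2441 and 2571 CPM in control rods and 1212, 1215 and 1151 CPM in control retina. In the knockout it reached 2972, 2831 and 2605 CPM in rods and 1214, 1216 and 1169 CPM in retina. The log2 fold change was 1.08 (SE 0.074, adjusted p = 5.43e-09) in controls and 1.22 (SE 0.074, adjusted p = 1.13e-09) in Pkm2_Rodko mice, and 1.10 and 1.24 with its copies added. *Eno2*, the neuronal enolase, had 391, 360 and 352 CPM in control rods and 442, 441 and 414 CPM in control retina. The values in Pkm2_Rodko mice were 361, 334 and 343 CPM in rods and 414, 429 and 408 CPM in retina. It was lower in rods, with a log2 fold change of -0.23 (SE 0.067, adjusted p = 0.00717) in controls and -0.27 (SE 0.067, adjusted p = 0.00258) in Pkm2_Rodko mice. On total reads it was -0.79 and -0.86. Relative to the median of all genes tested, *Eno2* was at 0.13 on the TMM scale and -0.02 on total reads in controls. *Eno1* lay 1.45 and 1.30 above that median. The median depends on the filter. On the TMM scale it was -0.37 for all genes tested and 0.24 for genes with at least 10 reads in every library. *Eno2*, at -0.23, lay below the latter.

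**Figure D3:**
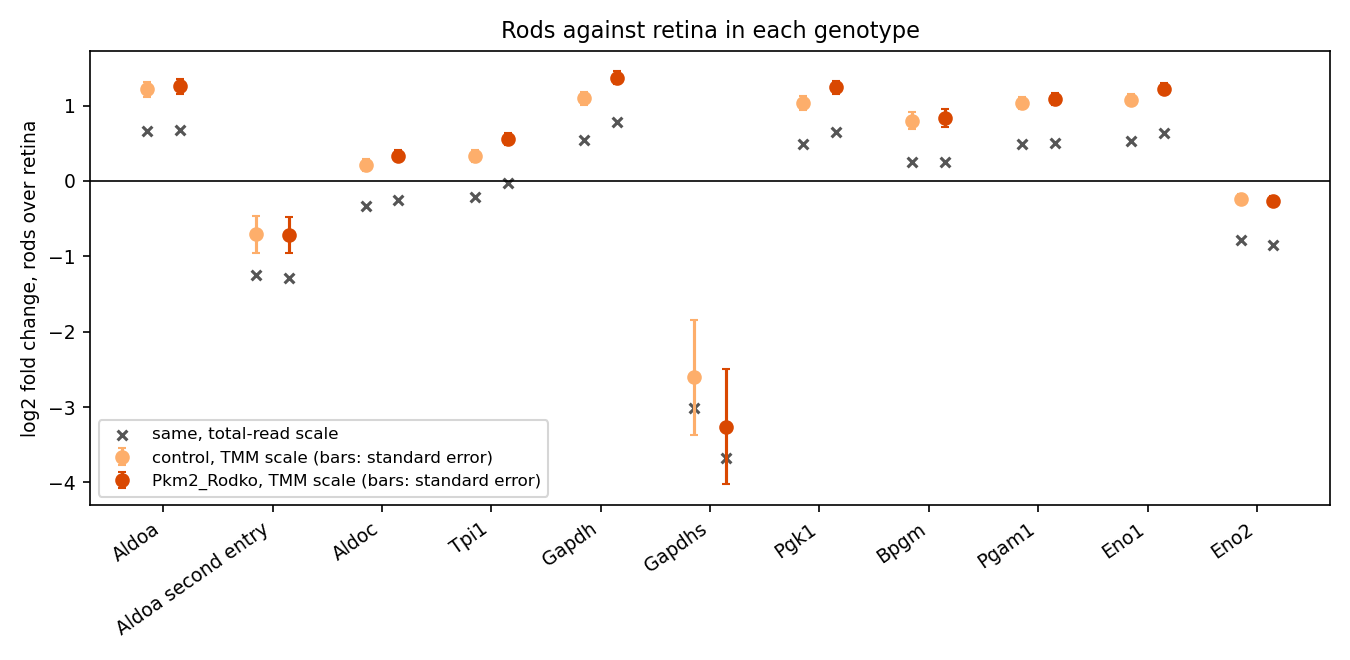
Log2 fold change of rods over retina for each entry in controls and in Pkm2_Rodko mice, on the TMM scale with standard errors, and on the total-read scale as crosses. *Aldoa*, *Gapdh*, *Pgk1*, *Pgam1* and *Eno1* lie between 1.04 and 1.37 on the TMM scale, *Aldoc* and *Tpi1* lie on opposite sides of 0 on the 2 scales, and *Eno2*, *Gapdhs* and the second *Aldoa* entry lie below 0 on both.

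A share of 1 gene in a sum of related genes within a library does not depend on the scale between libraries. Aldolase and enolase stand here for the sums of the member rows. *Bpgm* was set against *Pgam1* as a related gene and not as an isozyme. *Pgam2*, *Eno3* and *Eno4* were not in the sums. Shares were computed from reads per kilobase of mRNA. *Eno2* made up 10.02%, 9.65% and 9.04% of the enolase of control rods and 20.9%, 20.8% and 20.7% of that of control retina. In Pkm2_Rodko mice its share was 8.09%, 7.87% and 8.71% in rods and 19.8%, 20.4% and 20.2% in retina. The fractions did not overlap, and the difference was -11.2 percentage points in controls and -11.9 in Pkm2_Rodko mice (two-sided exact permutation test, p = 0.1 for each, the smallest that 3 libraries against 3 allow, and 0.12 after Benjamini-Hochberg adjustment over 6 relations). With the copies of *Eno1* added the differences were -7.42 and -7.72 points. *Aldoc* made up 4.14%, 5.57% and 3.98% of aldolase in control rods and 8.65%, 9.16% and 8.11% in control retina. The difference of -4.08 points, and that of -3.41 points in Pkm2_Rodko mice, again came without overlap (exact permutation p = 0.1 each, adjusted 0.12). *Bpgm* was 7.99%, 6.45% and 7.37% of the sum of *Pgam1* and *Bpgm* in control rods and 9.48%, 7.94% and 7.95% in control retina, which overlapped (difference -1.19 points, exact permutation p = 0.3). Among same-numbered libraries, however, the *Bpgm* share was lower in rods in 3 of 3 control pairs, by -1.49 to -0.58 points (exact paired permutation p = 0.25, the smallest that 3 pairs allow). With the copies of *Pgam1* added, control rods and control retina did not overlap (difference -1.08 points, exact permutation p = 0.1). In Pkm2_Rodko mice the *Bpgm* share was 6.46%, 6.47% and 5.76% in rods and 7.46%, 7.38% and 7.15% in retina, without overlap (difference -1.10 points, exact permutation p = 0.1, adjusted 0.12).

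**Figure D4:**
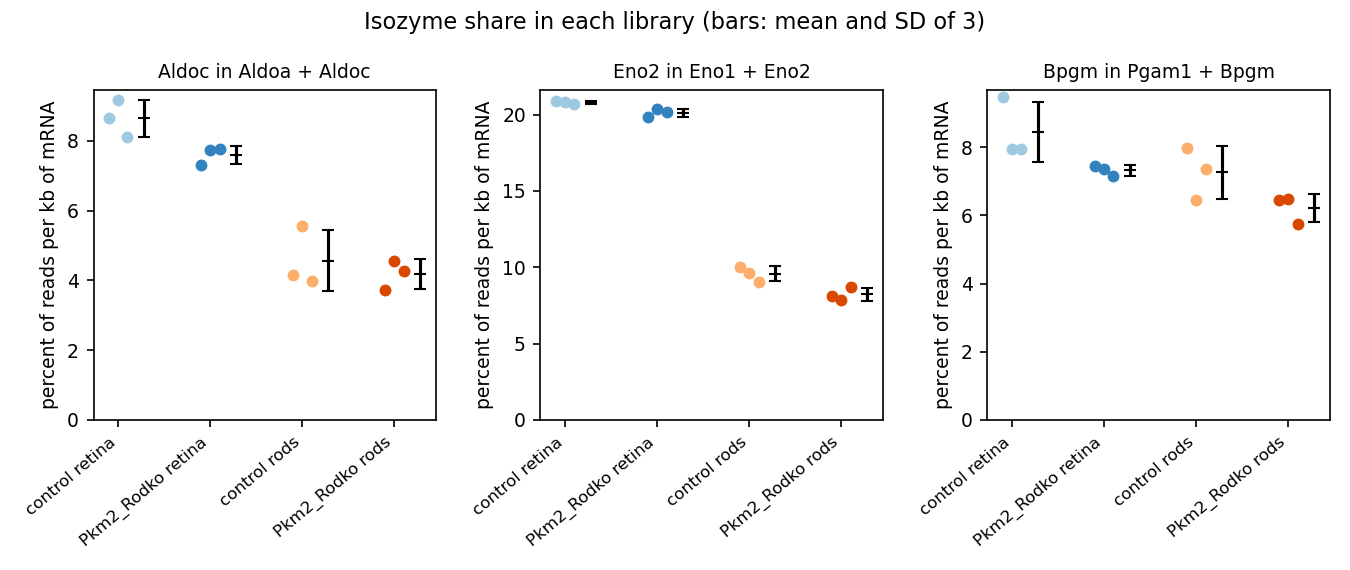
Share of *Aldoc*, *Eno2* and *Bpgm* in their families in each library, in percent of reads per kb of mRNA; points are libraries and bars give the mean and SD of 3. The *Eno2* share lies near 20% in retina and between 7.87% and 10.02% in rods, and the *Aldoc* share is between 3.72% and 5.57% in rods and above 7% in retina.

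Genotype was compared within each fraction on the deposited values, to see whether loss of *Pkm2* in rods moved the steps before pyruvate kinase. None of the 11 entries was called in rods or in retina by limma with Benjamini-Hochberg adjustment, and none had an unadjusted p under 0.05, which 1.37% of genes had with a higher and 3.41% with a lower mean in rods, and 2.12% and 2.06% in retina. The background was 0% of 20658 genes higher and 0.0194% lower in rods, and 0% of 25590 genes higher and 0.00391% lower in retina. No entry was called by edgeR or DESeq2 either. The adjusted p of the entries ranged from 0.932 to 0.959 in rods and from 0.947 to 0.988 in retina. In rods, 8 entries had a mean higher in Pkm2_Rodko mice and 3 lower, with a median log2 fold change of 0.15 against 0.01 for all genes. In retina, 5 were higher and 6 lower, with a median of -0.02.

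The intervals show which sizes of change these libraries leave possible. In rods the log2 fold change was 0.16 for *Eno1* (95% interval -0.03 to 0.35), 0.18 for *Pgk1* (-0.03 to 0.39), 0.17 for *Tpi1* (-0.03 to 0.36), 0.15 for *Pgam1* (-0.04 to 0.35), 0.16 for *Aldoa* (-0.08 to 0.40) and 0.13 for the *Gapdh* row (-0.05 to 0.30). *Aldoc* was at 0.04 (-0.15 to 0.24), *Eno2* at -0.08 (-0.25 to 0.09) and *Bpgm* at -0.08 (-0.34 to 0.18). With the copies added, the value in rods was 0.09 for *Gapdh* and 0.16 for *Eno1*. In retina it moved from -0.14 to 0.01 for *Gapdh*, which turned its sign, and from 0.02 to 0.03 for *Eno1*. A log2 change as large as that of *Pkm* lies outside each of these intervals. The interval of *Gapdhs* ran from -2.38 to 1.23, and at its depth a change could not be detected. Pkm2_Rodko rods replicate 3 had the lowest values of the knockout for several members, so leaving it out raised their knockout means. In that fit 5 of 11 entries reached an unadjusted p under 0.05 by limma and none an adjusted one. There 864 of 21235 genes (4.07%) had an unadjusted p under 0.05. Without control rods replicate 2 it was 1 entry, with 6.02% of genes, and without any other rod library 0 entries.

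*Eno1* had deposited values of 36010, 34558 and 35975 in control rods and 41797, 40337 and 37028 in Pkm2_Rodko rods. It and the second *Aldoa* entry (32.0, 37.2 and 35.7 against 38.5, 46.1 and 38.8) were the 2 entries of 11 whose libraries did not overlap in rods, both higher in Pkm2_Rodko mice, where the background is 4.49% of genes higher and 5.4% lower. In retina *Aldoa* (46965, 46839 and 50604 in controls against 54029, 51206 and 52196) and *Pgam1* (10037, 10518 and 10704 against 11805, 10979 and 10949) lay higher without overlap, against a background of 4.53%. *Aldoc* in retina (8225, 8743 and 8267 against 7866, 7946 and 8144) lay lower without overlap, against a background of 4.76%. Beside these values, all 7 Müller glia markers had lower means in Pkm2_Rodko rods and retina, with a median log2 ratio of -0.39 and -0.15. All 6 amacrine markers were lower too, and 9 of 10 rod markers were higher in rods. Their part in the values of the members was not tested.

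**Figure D5:**
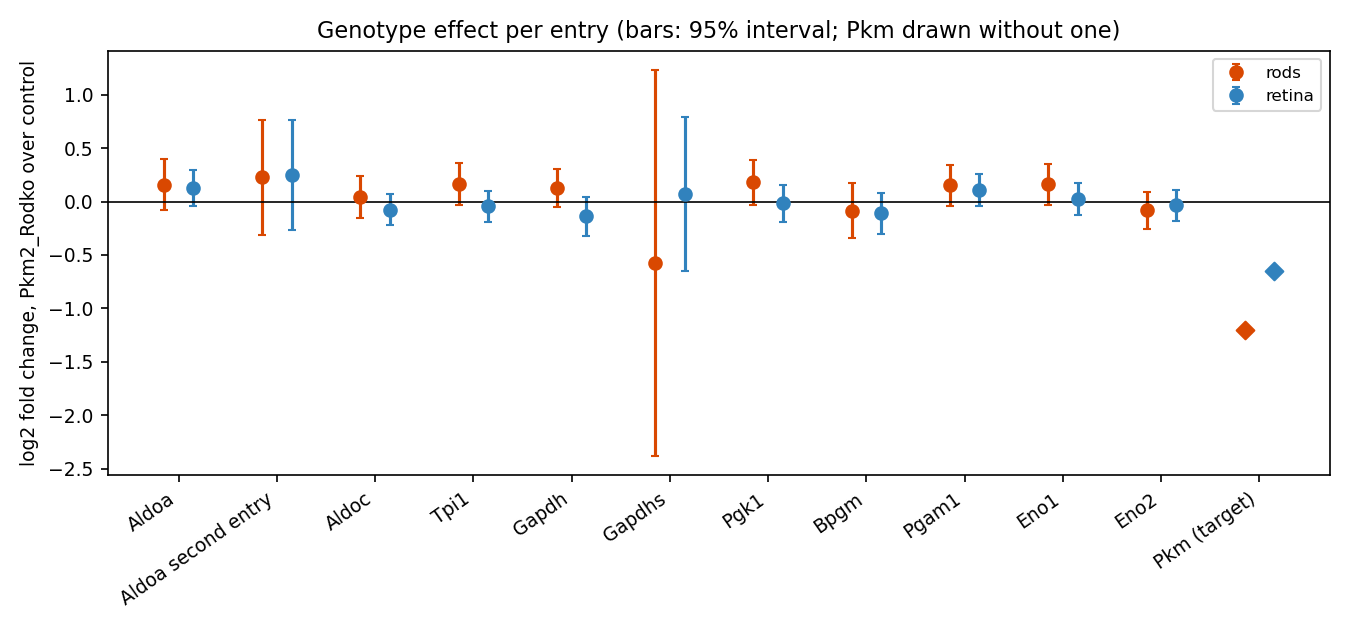
Log2 fold change of Pkm2_Rodko over control for each entry in rods and retina, with 95% intervals, and for *Pkm* without one. All 11 intervals include 0 in both fractions, while *Pkm* lies at -1.20 in rods and -0.65 in retina.

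The genotype effects of the fractions were also compared with each other in the fit of all 12 libraries. No entry was called, on a background of 0% of 25584 genes in either direction. The *Gapdh* row had an effect in rods that was 0.27 higher on the log2 scale than in retina (95% interval 0.02 to 0.53), with an unadjusted p of 0.0379 (background 1.81% of genes higher and 2.6% lower under 0.05) and an adjusted p of 0.978, and it was 0.08 with the copies added. The *Gapdh* row had 308, 332 and 270 CPM in control retina, the widest spread of its 4 groups in proportion to its mean. The shares of *Eno2*, *Aldoc* and *Bpgm* were compared between genotypes too. They differed without overlap for *Eno2* in rods (-1.35 points) and in retina (-0.684 points), for *Aldoc* in retina (-1.04 points) and for *Bpgm* in retina (-1.13 points). Each was lower in Pkm2_Rodko mice (exact permutation p = 0.1, adjusted 0.15 over 6 relations). With the copies of *Eno1* added, the *Eno2* differences were -0.828 points in rods and -0.528 points in retina. The *Aldoc* share in rods (-0.377 points, exact permutation p = 0.7) and the *Bpgm* share in rods (-1.04 points, exact permutation p = 0.3) overlapped, and with the copies of *Pgam1* added the latter no longer did (-0.885 points, exact permutation p = 0.1).

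The other glycolysis genes of a list of 18 also differed between the fractions. In controls 8 of 15 tested were higher in rods and 2 lower, where 23.5% of all genes were higher and 35.5% lower. On total reads 6 were higher and 5 lower, with a background of 8.57% and 49.7%. With at least 10 reads in every library 9 of 13 were higher and 1 lower, with a background of 45.8% and 28%. Listed genes higher on both scales were the hexokinases *Hk1* (1.66) and *Hk2* (1.74), the liver-type phosphofructokinase *Pfkl* (1.36), lactate dehydrogenase A, *Ldha* (1.55), *Pkm* (1.30) and *Eno4* (1.23), as log2 fold changes on the TMM scale. *Adpgk* (0.73) and *Gpi1* (0.69) were higher on the TMM scale only. *Hkdc1* (-2.19) and the muscle-type phosphofructokinase *Pfkm* (-1.57) were lower on both. In Pkm2_Rodko mice 7 were higher and 3 lower, the last including *Eno3* (-0.41), with a background of 23.9% and 35.1%. There 6 were higher and 6 lower on total reads (background 8.6% and 49.4%), and 4 and 6 on the authors' values (8.13% and 50.1%). With at least 10 reads in every library 7 of 13 were higher and 2 lower, with a background of 46.9% and 27.8%. *Pgk2* had no reads in control rods, and *Pgam2* had 4.28 CPM, *Eno3* 10.003 CPM and *Eno4* 3.69 CPM there. By genotype 2 of 15 tested were lower in rods, *Pkm* and the ADP-dependent glucokinase *Adpgk* (-1.02, adjusted p = 0.00712 by limma), and 1 of 16 in retina, *Pkm*. Of all genes 0.0194% were lower in rods and 0.00391% in retina. Leaving out any rod library but Pkm2_Rodko replicate 1 ended the call of *Adpgk* (adjusted p = 0.0555 to 0.0995 in these 5 fits).

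Some members resembled each other across the 12 libraries. After centring log2 values, the smallest root mean square difference between any pair of entries was 0.078, for *Pgam1* and *Eno1*, followed by 0.088 for *Gapdh* and *Eno1* and 0.094 for *Aldoa* and *Eno1*. *Aldoc* and *Tpi1* were close to each other at 0.125. Outside the members and their copies, among 10492 genes, the nearest to *Aldoa* was *Cnpy2* (0.071), to *Gapdh* *Dnajc9* (0.054), to *Eno1* *Dnaja3* (0.054), to *Pgam1* *U2af1* (0.060), to *Pgk1* *Ssu72* (0.070) and to *Bpgm* LTO1 (0.071). The nearest to *Tpi1* was *2310022A10Rik* (0.054), to *Aldoc* *Tmem62* (0.055), to *Eno2* *Mgrn1* (0.044), to *Gapdhs* *Dst* (0.155) and to the second *Aldoa* entry *Mblac2* (0.158). These distances are descriptions over libraries that share their scale, and they carry no test.

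The promoters of the 10 member genes were read for short motifs, in windows of 300 bases around the start of transcription, from the RefSeq table on GRCm38.p6. All 10 symbols matched, with 16 promoters. Some windows of *Aldoa* and of *Eno1* overlap, so a site there can be counted repeatedly, as the ACGTG of *Aldoa* was. The promoters of *Pgk1*, *Pgam1* and *Eno2* are shown because they cover a pair of genes higher in rods and the enolase that was lower. ACGTG and GCGTG were both searched as forms of the core of the hypoxia response element. Capitals mark ACGTG on either strand, and GCGTG is not marked.
Pgk1, chrX:106186850-106187149, plus strand: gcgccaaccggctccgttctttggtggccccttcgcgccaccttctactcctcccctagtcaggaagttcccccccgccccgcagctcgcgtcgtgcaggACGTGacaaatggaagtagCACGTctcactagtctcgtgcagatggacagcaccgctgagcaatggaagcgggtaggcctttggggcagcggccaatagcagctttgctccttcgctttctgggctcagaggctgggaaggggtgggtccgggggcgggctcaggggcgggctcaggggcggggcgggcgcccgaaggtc
Pgam1, chr19:41911621-41911920, plus strand: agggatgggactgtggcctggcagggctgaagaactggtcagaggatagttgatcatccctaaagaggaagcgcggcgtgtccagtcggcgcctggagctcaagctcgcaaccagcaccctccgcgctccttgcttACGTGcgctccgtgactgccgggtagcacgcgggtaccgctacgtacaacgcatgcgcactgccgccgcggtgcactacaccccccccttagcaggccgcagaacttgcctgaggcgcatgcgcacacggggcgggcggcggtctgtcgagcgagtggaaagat
Eno2, chr6:124769624-124769923, minus strand: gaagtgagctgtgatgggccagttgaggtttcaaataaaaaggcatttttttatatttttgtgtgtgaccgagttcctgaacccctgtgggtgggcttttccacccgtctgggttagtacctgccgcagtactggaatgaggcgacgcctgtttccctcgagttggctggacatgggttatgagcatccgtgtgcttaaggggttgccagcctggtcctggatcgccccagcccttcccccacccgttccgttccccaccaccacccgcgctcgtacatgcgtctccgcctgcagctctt
ACGTG, which would also be found inside CACGTG, stood in 7 of the 16 promoters and in 6 of the 10 genes (*Aldoa*, *Aldoc*, *Gapdh*, *Gapdhs*, *Pgam1* and *Pgk1*), and in 19.6% of 32817 promoters of all genes. GCGTG stood in 7 of 16 promoters, in 4 of the 10 genes (*Aldoc*, *Eno1*, *Gapdh* and *Pgam1*), and in 32.4% of all promoters. The SP1 motif GGGCGG stood in 9 of 16 and in 35.6% of all. CACGTG stood in 0 of 16 and in 7.15% of all, and the photoreceptor motif TAATCC in 1 of 16, that of *Aldoc*, and in 7.06% of all. *Gapdhs*, which was lower in rods, held ACGTG but not GCGTG, and *Eno1*, which was higher, held GCGTG but not ACGTG. A match is a description of the letters and not a binding site.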

How the data were processed

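The authors deposited 1 table with a signal per Ensembl gene and library, which equals the number of reads after scaling by the median-of-ratios method among the 6 libraries of a fraction, rounded to 1 decimal. The submitters' processing notes name CASAVA 1.8.2, HISAT2, DESeq2, edgeR and the build GRCm39, with no role or order; the counter, annotation and use of strand are not given in the sources used here. Whole reads were recovered from the step of each library (100% of values whole within 0.1 read), and all columns were used. Nothing states that the 3 libraries of a group came from separate animals, so p-values measure the spread between libraries. The precision is set by 3 libraries a group.

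Genotypes were compared by limma 3.58.1 (R 4.3.3) with a variance trend on log2(value + 1), where the mean value was at least 1 in 1 genotype. Fractions and the difference of genotype effects used 1 fit of 4 group means on reads scaled by TMM (edgeR 4.0.16). For low genes a fold change on log2(value + 1) can be smaller or larger than that of the summed reads. P-values were adjusted by Benjamini-Hochberg at 0.05. The limma fits of genotype in rods and of the difference of genotype effects were also run on simulated counts. These had the same dispersion for all genes and neither copies nor pairs of libraries. They do not show how the fits perform on the present data. The values proved to be scaled reads, as the design foresaw. Lengths were those of the principal mRNA of GENCODE vM21, and copies were found by BLAST 2.17.0 at 90% identity over at least 200 bases and 50% of the copy. Python 3.11.15, numpy 2.4.6, pandas 2.3.3, Biopython 1.88 and matplotlib 3.10.9 did the rest.

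Same-numbered rod and retina libraries of a genotype deviated together (r = 0.156, 0.452 and 0.497 in controls and 0.443, 0.281 and 0.488 in Pkm2_Rodko mice). The numbers in the sample titles were therefore read as pairs of fractions. These values do not establish the pairing, because control rods replicate 3 and Pkm2_Rodko rods replicate 1 also had r = 0.434. Named were all members, *Pkm*, the other glycolysis genes past the threshold and the further isozymes, copies of members, the 1 nearest gene of each entry with at least 10 CPM, and fixed motifs. From the list of other glycolysis genes, 2 are not reported here and are left out of its counts. Members and lists were chosen with earlier results of these data known. Alternatives were edgeR and DESeq2 1.42.0 on recovered reads, RLE, total-read and authors' scaling, other filters (none, or 10 reads in every library), 0.1 as the pseudocount, all 12 libraries in 1 fit, the replicate block, and leaving out each library. Copies added to their gene, the length of all exons for shares, and paired shares, were chosen after seeing the data.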

Additional observations from a re-analysis of the deposited data

How the results depend on the processing

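Scaling was the choice that changed most. With total reads or the authors' values, 5 entries were higher in rods and 5 lower in controls, and 5 were higher and 4 lower in Pkm2_Rodko mice. Of all genes, 8.57% were then higher and 49.7% lower in controls on total reads and 7.61% and 51.3% on the authors' values, and 8.6% and 49.4%, and 8.13% and 50.1%, in Pkm2_Rodko mice. *Aldoc* was then at -0.34 and -0.38 in controls and -0.25 and -0.27 in Pkm2_Rodko mice, and *Tpi1* at -0.21 and -0.26 in controls and -0.0305 and -0.0494 in Pkm2_Rodko mice, on total reads and the authors' values. The difference of genotype effects for *Bpgm* was -0.00055 on total reads. With copies added, the genotype effect of *Gapdh* in retina was 0.0127. *Pkm* in retina, at -0.65, was not called with at least 10 reads in every library (adjusted p = 0.0933) or with a replicate block (adjusted p = 0.157).

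The replicate block gave 8 higher and 3 lower entries between the fractions in both genotypes and 0 by genotype, and changed no call of a member. Among the other glycolysis genes it ended the call of *Pkm* in retina. It gave 8 of them higher and 3 lower between the fractions in controls and 8 and 4 in Pkm2_Rodko mice. Between the fractions it called 24.6% of all genes higher and 36.5% lower in controls, and 25.1% and 35.9% in Pkm2_Rodko mice. Over all genes it called 4 higher by genotype in rods, where 0 were without it. For the shares of *Aldoc*, *Eno2* and *Bpgm* the exact paired permutation p was 0.25 for each of 6 relations. Same-numbered libraries of different genotypes did not deviate together (r from -0.359 to 0.138), so their block shares a number only.

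Leaving out 1 library turned the sign of uncalled genotype effects, which ranged in rods from -0.0114 to 0.113 for *Aldoc*, -1.49 to 0.0539 for *Gapdhs* and -0.186 to 0.0232 for *Bpgm*, and in retina from -0.12 to 0.38 for *Gapdhs* and -0.0756 to 0.0655 for *Pgk1*. For the difference of effects the ranges were -0.0557 to 0.119 for *Aldoa*, -0.21 to 0.18 for its second entry, -1.70 to 0.0622 for *Gapdhs*, -0.0433 to 0.109 for *Pgam1* and -0.0894 to 0.151 for *Bpgm*. The *Aldoc* share between genotypes in rods ranged from -0.668 to 0.125 points, and *Pkm* in retina from -0.68 to -0.61, not called in 5 of 6. Causes were not tested.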
